A study of Mus musculus with 12 samples.

Results

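The Toll-like receptor and NF-kB pathway was followed through 44 genes in murine GMP. GMP, or granulocyte-monocyte progenitors, are the marrow cells that give rise to neutrophils and monocytes. The members were chosen by name, as every probe whose gene name in the scanner files is one of the 44, and 66 probes met the rule. They comprise 15 receptors and cofactors, 11 adaptors and kinases, the 3 subunits of the IkB kinase (IKK) complex, 5 NF-kB subunits, 9 feedback inhibitors and IkB proteins, and the cytokine gene Tnf. Of the 44, 39 were measured well enough to be tested among 17905 genes, and each of these other than Tlr1 and Ticam2 was well above background on every array. The remaining members were Tlr3, Tlr5 and Tlr8, which were well above background on 0 of 12 arrays, the NF-kB subunit gene Rel, which was so on 1 ko and 1 wt array, and Tlr11.

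Toll-like receptors are membrane proteins that recognise molecules of microbes, some at the cell surface and others in endosomes. They recruit the adaptors Myd88 and Tirap or Ticam1 and Ticam2, which lead through IRAK kinases, Traf6 and the kinase Map3k7 to the IKK complex. IKK marks the IkB proteins for degradation and so frees NF-kB dimers, which enter the nucleus and switch on inflammatory genes together with the genes of their own inhibitors. Myeloid progenitors carry several of these receptors and respond to microbial products themselves.

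RNA of sorted GMP was hybridised to 12 one-colour arrays in 4 groups. RUNX1-ERt2 GMP (2 arrays) and ERt2 GMP (2 arrays) derived from bone marrow of Runx1fl/fl-Tg(vav-Cre) donors, taken on day 3 after 150 mg/kg of 5-fluorouracil, a drug that kills dividing cells. This marrow was infected with a MIG retrovirus that encodes GFP together with RUNX1-ERt2, a fusion of the transcription factor RUNX1 with a tamoxifen-responsive domain, or with ERt2 alone, and was transplanted into lethally irradiated mice. After 6 weeks the mice received tamoxifen (49.5 µg/g on 3 days), and viable GFP-positive GMP were sorted 24 h later. The labels name tamoxifen for both transplanted groups, although the protocol speaks of only a part of the mice. The ko GMP (4 arrays) came from untransplanted Runx1fl/fl-Tg(vav-Cre) mice, labelled Runx1Δ/Δ, and the wt GMP (4 arrays) from Runx1+/+-Tg(vav-Cre) mice. All 4 groups thus carried the vav-Cre transgene, whose promoter is active throughout the blood system, so that deletion was not limited to GMP, and no group other than wt had intact Runx1 alleles. Ages, pooling of animals and retained recipient cells were not given in the sources used here.

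The median processed signal was 43.1 to 59.7 on the transplant arrays and 65.4 to 98.6 on the ko and wt arrays, and 53.5% to 63.1% of 39429 probes were well above background. The ko and wt arrays with numbers 1 and 2 lay on slide 1 and those with numbers 3 and 4 on slide 2, whereas ERt2 filled slide 3 and RUNX1-ERt2 slide 4, so that slide and group cannot be told apart in the transplants. All 13 GMP markers were well above background on every array. The brighter Runx1 probe read 1.92 to 2.33 in RUNX1-ERt2 GMP, 3.14 to 3.29 in ERt2 GMP, 2.87 to 4.20 in ko GMP and 1.18 to 2.23 in wt GMP. Since its place relative to the floxed segment was not given in the sources used here, it does not check the deletion. The other Runx1 probe was also lower in RUNX1-ERt2 GMP (1.56 to 1.76) than in ERt2 GMP (2.60 to 2.61). The probes thus do not show expression of the fusion either. The labels do not state whether replicate arrays represent separate mice, so each p-value speaks to the spread among these arrays, which could be technical. In sorted populations like these, fewer cells of a type and less RNA per cell cannot be told apart.

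Levels below are log2 processed signal relative to the 75th percentile of the array, so a probe at 0 is as bright as that percentile; levels of different probes are not compared. Differences are on the same log2 scale, with the standard error (SE) of a limma fit over the 12 arrays and p-values adjusted over all 17905 genes. Of the 39 tested members, 15 were higher and 2 lower in ko than in wt GMP at an adjusted p under 0.05, against 11.5% of all tested genes that were higher and 13.8% that were lower, or 43.6% of members against 25.3% of genes in either direction. In 10 of the 39 members every ko array lay above every wt array, against 10% of all genes, and in 4 of the 39 every one lay below, against 13.2%. The median difference was 0.18 over the members and −0.05 over all tested genes. In the transplants, 9 of 39 members were lower and 0 higher with RUNX1-ERt2 than with ERt2 by limma, against 8.87% and 10.2% of all genes; this is 23.1% of members against 19.1% of genes in either direction. The median was −0.24 over the members and 0.00 over all genes. Both RUNX1-ERt2 arrays lay above both ERt2 arrays in 4 members and below both in 24, against 29.1% and 29.8% of all genes, so such separation is common in a comparison of 2 against 2. The members higher in ko GMP were mostly adaptors, NF-kB subunits and IkB proteins, whereas 6 of the 9 that were lower with RUNX1-ERt2 were receptors or cofactors.

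**Figure D1:**
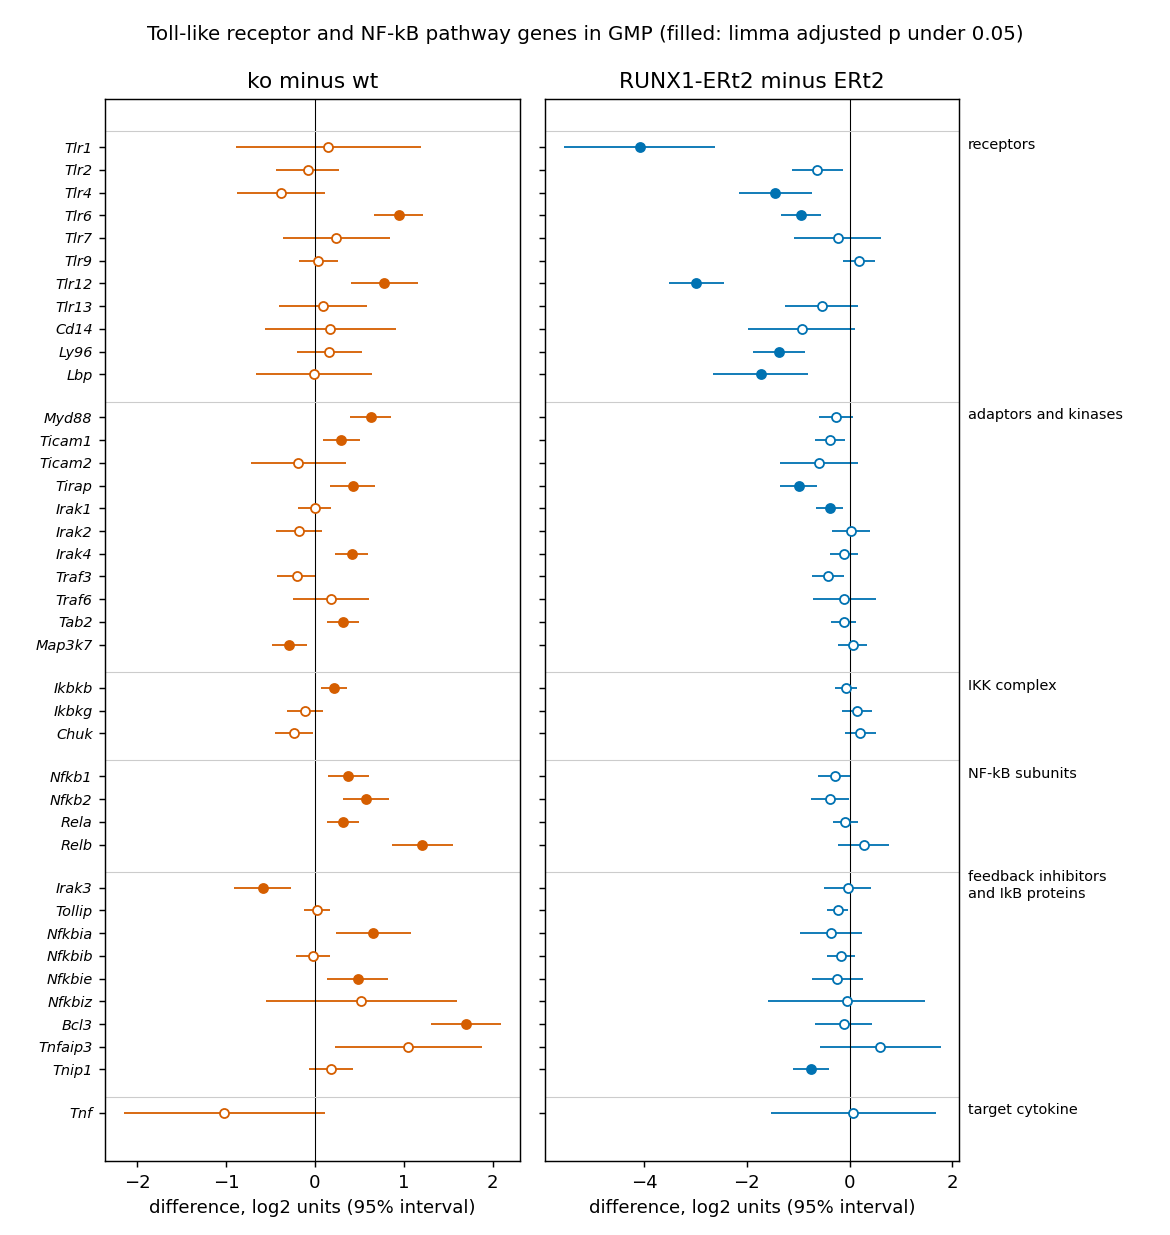
Differences in log2 units with 95% intervals for the 39 tested members, ko minus wt on the left and RUNX1-ERt2 minus ERt2 on the right, grouped by role; filled points passed an adjusted p of 0.05. The 4 tested NF-kB subunits lie to the right of 0 on the left panel, and 10 of 11 receptors and cofactors lie to the left of 0 on the right panel.

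Among receptors and cofactors, Tlr6 and Tlr12 were the 2 of 11 tested that passed in ko against wt GMP, both higher. This is 18.2% of the role, below the 25.3% of all genes called in that comparison. Tlr6 forms a dimer with Tlr2 that recognises bacterial diacylated lipopeptides. Its level was −0.99, −1.26, −1.81 and −1.92 on the ko arrays, against −2.15, −2.40, −2.55 and −2.65 on the wt arrays. The groups did not overlap, and the difference was 0.94 ± 0.12 (SE; limma adjusted p = 0.000958). It was 1.15 on slide 1 and 0.73 on slide 2. Tlr12, which in mice recognises profilin of the parasite Toxoplasma, read 1.04, 1.11, −0.03 and 0.33 in ko GMP and −0.09, −0.07, −0.37 and −0.15 in wt GMP. Again the ko arrays lay above, by 0.78 ± 0.17 (adjusted p = 0.0101), and the gap was wider on slide 1 (1.15) than on slide 2 (0.41).

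Both genes were lower with RUNX1-ERt2 in the transplants. Tlr6 read −1.89 and −2.14 in RUNX1-ERt2 GMP, against −0.99 and −1.13 in ERt2 GMP, a difference of −0.95 ± 0.17 (limma adjusted p = 0.00499; 0.0576 without the slide term). Tlr12 read −1.11 and −1.47 in RUNX1-ERt2 GMP, against 1.64 and 1.74 in ERt2 GMP. At −2.98 ± 0.24 (adjusted p = 4.95e-05), this was the smallest p of any member in that comparison. With the 2 transplant groups fitted alone, the limma adjusted p of Tlr12 was 0.012.

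Tirap, the adaptor that brings Myd88 to receptors at the cell surface, was also called in both comparisons. It read −0.92 and −1.03 in RUNX1-ERt2 GMP, against 0.06 and −0.03 in ERt2 GMP, a difference of −0.99 ± 0.16 (limma adjusted p = 0.00286). In native GMP its level was −0.76, −0.74, −0.86 and −1.14 on the ko arrays and −1.32, −1.39, −1.08 and −1.42 on the wt arrays. One wt array lay above one ko array, and the difference was 0.42 ± 0.11 (adjusted p = 0.0253), a call that ended in 10 of 18 other settings, 6 of which leave out 1 array. Tlr6, Tlr12 and Tirap make 3 of 39 members that were higher in ko GMP and lower with RUNX1-ERt2, against 2.45% of all tested genes, and no member passed in both comparisons with any other pair of directions.

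The promoters of these 3 genes are shown because both comparisons moved them in opposite directions. Each is a window of 300 bases around a start site in RefSeq, most of it upstream (GRCm38.p6, gene strand, 5′ to 3′). Capitals mark the RUNX motifs TGTGGT or TGCGGT, searched on both strands, and the kappa B consensus, to which NF-kB binds.
Tlr6: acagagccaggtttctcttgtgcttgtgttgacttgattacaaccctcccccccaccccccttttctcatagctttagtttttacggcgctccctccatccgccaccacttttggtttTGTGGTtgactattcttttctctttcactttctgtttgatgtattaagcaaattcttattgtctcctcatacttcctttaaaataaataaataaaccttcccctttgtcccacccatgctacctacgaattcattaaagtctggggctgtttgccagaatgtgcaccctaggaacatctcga
Tlr12: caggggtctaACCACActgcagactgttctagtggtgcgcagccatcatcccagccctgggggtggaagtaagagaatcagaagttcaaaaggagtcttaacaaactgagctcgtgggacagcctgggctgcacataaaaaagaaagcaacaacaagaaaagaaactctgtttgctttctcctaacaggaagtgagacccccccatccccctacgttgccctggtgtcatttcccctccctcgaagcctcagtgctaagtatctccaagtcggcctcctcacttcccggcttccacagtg
Tirap: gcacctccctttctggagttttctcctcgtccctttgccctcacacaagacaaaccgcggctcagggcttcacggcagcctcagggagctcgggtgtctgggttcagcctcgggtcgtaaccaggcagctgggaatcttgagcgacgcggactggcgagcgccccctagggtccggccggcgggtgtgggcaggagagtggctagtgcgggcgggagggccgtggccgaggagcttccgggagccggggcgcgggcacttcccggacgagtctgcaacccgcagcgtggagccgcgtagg
Tlr6 (chr5:64959117-64959416, minus strand) holds TGTGGT on the gene strand, and the other Tlr6 start listed holds none of the motifs. Tlr12 (chr4:128618570-128618869, minus strand) holds the complement ACCACA far from its start, and neither of the Tirap starts (chr9:35199856-35200155 is shown, minus strand) holds any. TGTGGT occurs in 16.8% of the 32851 mouse promoters of this length and TGCGGT in 6.45%, so such matches are frequent, and they are a description of letters rather than of binding. No match says only that these letters are not in this window.

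The receptor complex for bacterial lipopolysaccharide was lower with RUNX1-ERt2. Tlr4 is its signalling chain, Ly96 (MD-2) the subunit that holds the ligand, and Lbp the plasma protein that delivers it. Tlr4 read −2.70 and −2.83 in RUNX1-ERt2 GMP, against −1.52 and −1.13 in ERt2 GMP (−1.44 ± 0.31, limma adjusted p = 0.0115). In native GMP the Tlr4 levels overlapped, at −3.06, −2.71, −3.37 and −4.42 in ko and −2.61, −2.80, −3.19 and −3.42 in wt GMP (−0.38 ± 0.22, adjusted p = 0.244). Ly96 read −3.03 and −2.95 with RUNX1-ERt2 and −1.70 and −1.53 with ERt2 (−1.37 ± 0.23, adjusted p = 0.00308), while its native levels overlapped, between −2.61 and −1.41 in ko and between −2.28 and −1.83 in wt GMP. Lbp read 1.76 and 0.92 with RUNX1-ERt2 and 2.98 and 3.17 with ERt2 (−1.73 ± 0.41, adjusted p = 0.0171), and a second Lbp probe gave −1.70. With the 2 transplant groups fitted alone, Lbp did not pass (limma adjusted p = 0.0531). The Lbp call ended without RUNX1-ERt2 replicate 2 (adjusted p = 0.114) or without either ERt2 array, and that of Tlr4 without ERt2 replicate 2 (0.0744) or RUNX1-ERt2 replicate 2 (0.0634). Cd14, the coreceptor that hands lipopolysaccharide to Ly96, passed in neither comparison (−0.93 ± 0.46 with RUNX1-ERt2, adjusted p = 0.205, and 0.17 ± 0.33 in ko, adjusted p = 0.743).

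Tlr1, the partner of Tlr2 for triacylated lipopeptides, had the deepest fitted difference of the members. It read −5.14 and −6.42 in RUNX1-ERt2 GMP, where 1 of 2 arrays was well above background, against −1.68 and −1.71 in ERt2 GMP. The fitted difference was −4.09 ± 0.65 (limma adjusted p = 0.00259), and its size is uncertain because of the dim array. In other settings it ranged from −4.72 to −2.16, and that of Tlr12 from −3.16 to −2.78, so the rank depends on the setting. In native GMP Tlr1 spread widely within each group, from −6.04 to −3.14 in ko and from −5.50 to −3.51 in wt GMP (0.15 ± 0.46, adjusted p = 0.845). Tlr2 itself read −0.08 and −0.26 with RUNX1-ERt2 and 0.41 and 0.52 with ERt2, a difference of −0.63 ± 0.22 that did not pass (adjusted p = 0.0789). It differed by −0.08 ± 0.16 between ko and wt GMP (adjusted p = 0.739).

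The 3 tested receptors that sense nucleic acids in endosomes, Tlr7, Tlr9 and Tlr13, did not pass in either comparison. Tlr3 and Tlr8 were not tested. Tlr9, the receptor of unmethylated CpG DNA, differed by 0.17 ± 0.14 with RUNX1-ERt2 and by 0.04 ± 0.10 in ko GMP, where the 95% interval was −0.18 to 0.26. Tlr7, a receptor of single-stranded RNA, differed by −0.23 ± 0.38 and 0.24 ± 0.27. A dimmer Tlr7 probe, well above background on all 12 arrays but not the one tested, gave −0.89 ± 0.30 and 0.77 ± 0.21, so the Tlr7 differences depend on the probe. Tlr13, which recognises bacterial ribosomal RNA in mice, differed by −0.55 ± 0.31 and 0.09 ± 0.22. The 3 genes were lower in ERt2 than in ko GMP, a comparison described further on. Tlr11, a relative of Tlr12, exceeded background clearly on 0 of 4 ko arrays and 2 of 4 wt arrays. It was not tested, and no size is given for it.

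**Figure D2:**
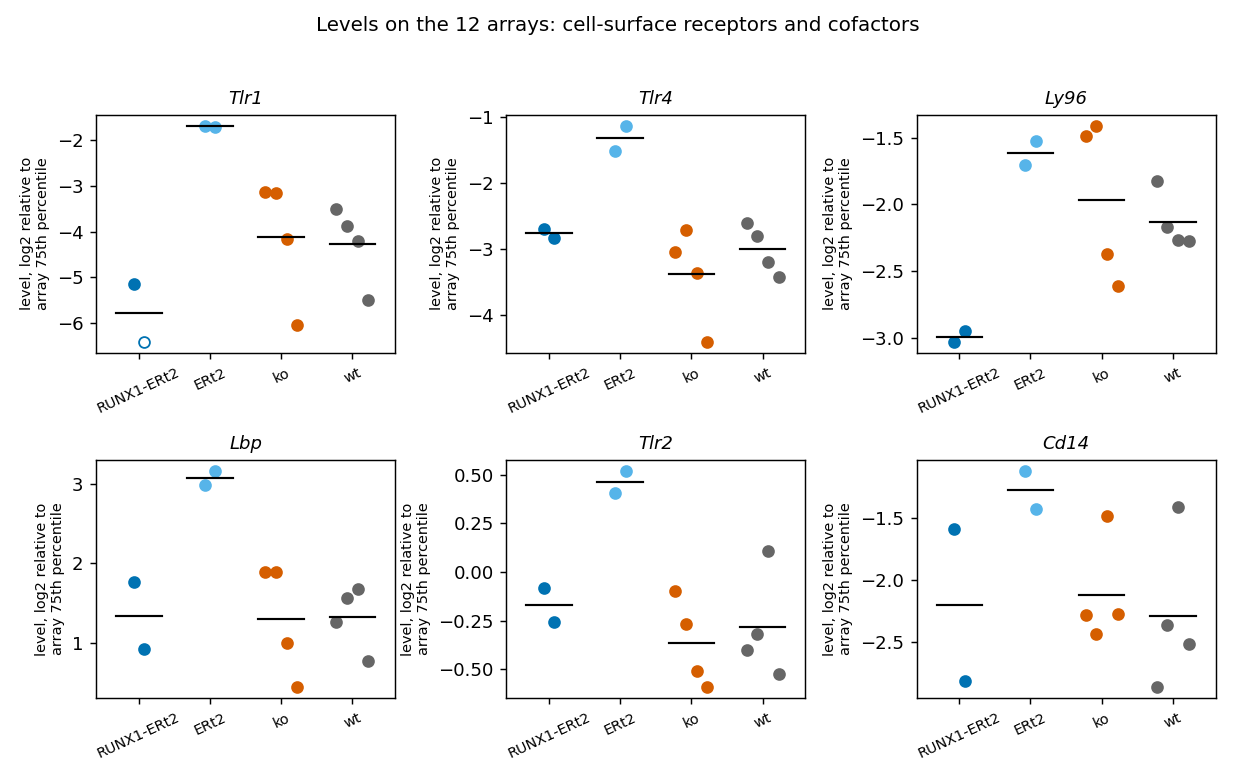
Level (log2 relative to the 75th percentile of the array) of 6 cell-surface receptors and cofactors on each array; lines are group means, and open points were not well above background. In the panels of Tlr1, Tlr2, Tlr4 and Lbp both ERt2 arrays stand above the 10 other arrays.

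In the transplants, monocyte markers were lower with RUNX1-ERt2, as were several of these receptors. The summed level of 16 monocyte and macrophage markers, in multiples of the 75th percentile, was 21.9 to 27.4 in RUNX1-ERt2 GMP, 61.5 to 61.9 in ERt2 GMP, 16.6 to 40.2 in ko GMP and 33.2 to 58.8 in wt GMP. On each array 13 to 16 of the 16 were well above background. Of the 15 that were tested, 9 were lower with RUNX1-ERt2 and 0 higher, against 8.87% and 10.2% of all genes. Those lower included the receptor gene Csf1r and the complement genes C1qa, C1qb and C1qc. In ko GMP 5 of the 15 were lower and 0 higher, against 13.8% and 11.5% of all genes. There, 2 of 11 tested receptors and cofactors were higher and 0 lower. Late neutrophil markers summed to 124.6 to 145.6 in RUNX1-ERt2 GMP, 544.6 to 678.7 in ERt2 GMP, 22 to 284.1 in ko GMP and 51.1 to 283.5 in wt GMP. None of the 15 passed with RUNX1-ERt2 (limma; median −1.23). Markers of GMP themselves were lower with RUNX1-ERt2 in 7 of 13 and higher in 0, with sums of 502.3 to 700.4 in RUNX1-ERt2 GMP and 982.8 to 1114 in ERt2 GMP. In ko against wt GMP 5 of the 13 were lower and 2 higher, with sums of 452.2 to 585.4 in ko and 666.9 to 927 in wt GMP. With RUNX1-ERt2, basophil, eosinophil and mast cell markers were lower in 4 of 13 and higher in 2, and erythroid markers were higher in 3 of 11. The part of these marker lists in the receptor differences was not tested.

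**Figure D3:**
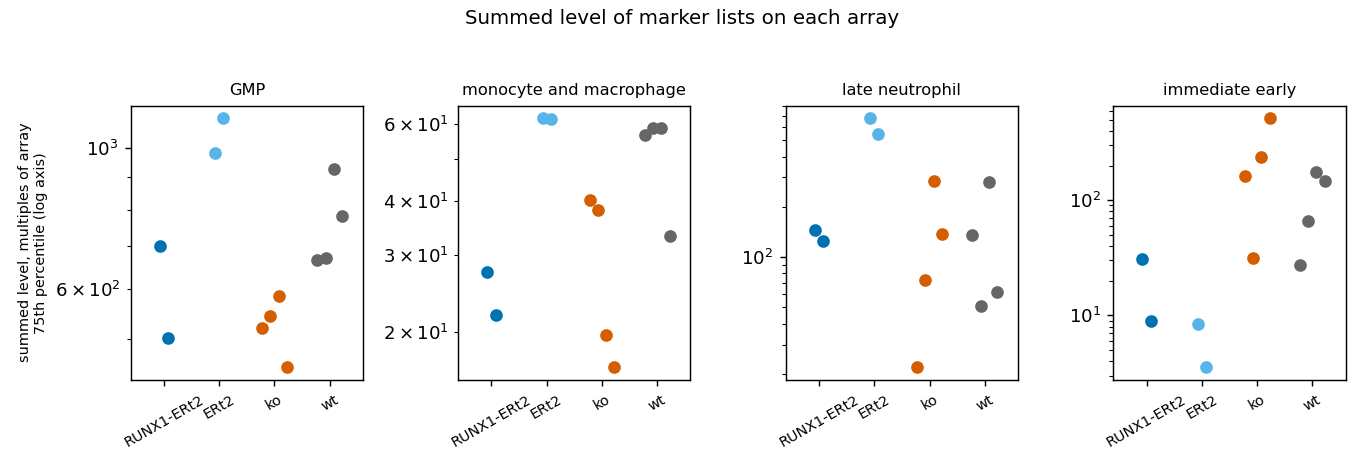
Summed level of marker lists on each array, in multiples of the 75th percentile of the array, on log axes. Monocyte and neutrophil sums are highest in ERt2 GMP, and the immediate early sum, a list chosen after the data were seen, is highest on ko replicate 4.

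Downstream of the receptors, 5 of 11 adaptors and kinases were higher in ko GMP and 1 was lower, or 54.5% called against 25.3% of all genes. Myd88, the adaptor shared by most Toll-like receptors and by the interleukin-1 receptor, read 1.49, 1.40, 1.81 and 1.61 on the ko arrays, against 0.78, 0.91, 1.24 and 0.87 on the wt arrays. The groups were apart, and the difference of 0.63 ± 0.10 (limma adjusted p = 0.00301) was alike on slide 1 (0.60) and slide 2 (0.66). Irak4, the first kinase recruited by Myd88, was higher by 0.41 ± 0.08 (adjusted p = 0.00832), and Tab2, the ubiquitin-binding partner of Map3k7, by 0.31 ± 0.08 (0.0187). Ticam1 (TRIF), the adaptor of the Myd88-independent route, was higher by 0.30 ± 0.09 (0.0417), and Map3k7 (TAK1), which activates IKK, was lower, at −0.29 ± 0.09 (0.0413). With the replicate number as a block neither of these 2 passed (adjusted p = 0.0540 and 0.0644). The Ticam1 call ended in 13 of 18 other settings, that of Map3k7 in 14 and that of Tab2 in 6. Irak1, Irak2, Traf3, Traf6 and Ticam2 did not pass. A second, dimmer Irak2 probe stood at 0.43, where the brighter one gave −0.18.

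With RUNX1-ERt2, Tirap and Irak1 were the adaptors and kinases that passed. Irak1, the kinase that Irak4 activates, read 2.14 and 2.19 in RUNX1-ERt2 GMP and 2.54 and 2.56 in ERt2 GMP. The difference was −0.38 ± 0.12 (limma adjusted p = 0.0470), and this call ended in 12 of 15 other settings. Myd88 differed by −0.26 ± 0.14 (adjusted p = 0.261), with 1.70 and 1.48 in RUNX1-ERt2 GMP against 1.85 and 1.85 in ERt2 GMP. Ticam2, the adaptor that links Tlr4 to Ticam1, was not well above background on either RUNX1-ERt2 array and was at least 1.32-fold lower there than in ERt2 GMP, without passing the test (adjusted p = 0.262). In the IKK complex, Ikbkb, its main catalytic subunit, was higher in ko GMP by 0.21 ± 0.07 (adjusted p = 0.0443, and 0.0619 with the replicate block). The Ikbkb call ended in 15 of 18 other settings, 8 of which leave out 1 array. Ikbkg and Chuk did not pass, and no IKK gene passed in the transplants.

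All 4 tested NF-kB subunits were higher in ko than in wt GMP, and none of them passed in the transplants; 11.5% of all genes were higher in ko GMP. Markers of other cell types moved between these groups too. Of 11 tested megakaryocyte and platelet markers, 6 were higher and 0 lower in ko GMP, with sums of 51.4 to 67.9 in ko and 11.6 to 17.7 in wt GMP. Of 12 dendritic cell markers 6 were lower, against 13.8% of all genes. The part of these markers in the members' differences was not tested. Relb, a subunit of the alternative pathway, read −1.55, −1.27, −1.70 and −1.39 on the ko arrays, against −2.50, −2.69, −2.84 and −2.71 on the wt arrays. Every ko array lay above every wt array, at 1.21 ± 0.15 (limma adjusted p = 0.000827). Slide 1 gave 1.19 and slide 2 gave 1.23. A neighbouring Relb probe gave 1.09, but a dimmer one nearer the 5′ end of the gene (chr7:20203058-20203117, mm9, minus strand) gave −0.08. Nfkb2 encodes p100, the precursor whose processing releases the alternative pathway, and Relb is its usual partner. It read −0.53, −0.45, −0.57 and −0.13 in ko GMP, against −1.13, −0.95, −0.86 and −1.03 in wt GMP (0.57 ± 0.12, adjusted p = 0.00807).

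The subunits of the classical pathway moved less. Nfkb1, which encodes p105 and p50, read 0.95, 0.92, 1.03 and 0.81 in ko GMP, against 0.56, 0.68, 0.68 and 0.28 in wt GMP (0.38 ± 0.10, limma adjusted p = 0.0254), and Rela (p65) was higher by 0.32 ± 0.08 (0.0185). Each of these calls ended in several other settings, 8 of 18 for Nfkb1 and 5 of 18 for Rela. In RUNX1-ERt2 against ERt2 GMP, Relb differed by 0.27 ± 0.22 (adjusted p = 0.448), reading −1.85 and −2.03 with RUNX1-ERt2 and −1.88 and −2.55 with ERt2. Nfkb2 differed by −0.38 ± 0.16 (adjusted p = 0.154), Rela by −0.08 ± 0.11 (0.681) and Nfkb1 by −0.29 ± 0.14 (0.195).

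Nfkb1 had a second probe that differed from it in the transplants (chr3:135247621-135247680, mm9; the one used above lies at chr3:135254550-135254609). It read −2.54 and −2.28 in RUNX1-ERt2 GMP and −5.05 and −4.61 in ERt2 GMP, but between 0.31 and 0.51 in ko GMP and between −0.00 and 0.24 in wt GMP. The fitted difference was 2.42 ± 0.17 with RUNX1-ERt2 and −5.25 ± 0.14 between ERt2 and ko GMP, where the brighter probe gave −0.29 and 0.44. Both probes were well above background on all 12 arrays, and between ko and wt GMP they were close, at 0.27 and 0.38. Nfkb1 differences that involve the transplants therefore depend on the probe.

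Bcl3, a nuclear IkB protein that binds p50 and p52 dimers and can turn them into activators, had the largest difference of the members in native GMP. Its level was 2.39, 2.49, 1.96 and 1.84 on the ko arrays, against 0.53, 1.14, 0.30 and −0.11 on the wt arrays. The lowest ko array lay well above the highest wt array, and the difference of 1.70 ± 0.17 (limma adjusted p = 0.000283), or 3.25-fold, was 1.60 on slide 1 and 1.80 on slide 2. With RUNX1-ERt2 it read 1.45 and 0.85, against 1.33 and 1.22 with ERt2 (−0.12 ± 0.25, adjusted p = 0.800). Bcl3, Relb, Tlr6, Tlr12 and Myd88 were the 5 of 17 native calls that held in all 18 other settings, which do not count the fits to 1 slide; on slide 2 alone Bcl3 was the single member called.

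The promoters of Bcl3 and Nfkb2 are shown because these genes rose together with other NF-kB subunits in ko GMP and hold the kappa B consensus, again in capitals.
Bcl3: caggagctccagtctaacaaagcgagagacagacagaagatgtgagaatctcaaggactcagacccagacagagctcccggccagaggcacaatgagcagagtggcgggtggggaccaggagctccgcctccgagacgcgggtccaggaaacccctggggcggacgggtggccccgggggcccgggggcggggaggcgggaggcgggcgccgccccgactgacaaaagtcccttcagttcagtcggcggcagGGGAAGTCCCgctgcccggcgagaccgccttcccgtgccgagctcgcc
Nfkb2: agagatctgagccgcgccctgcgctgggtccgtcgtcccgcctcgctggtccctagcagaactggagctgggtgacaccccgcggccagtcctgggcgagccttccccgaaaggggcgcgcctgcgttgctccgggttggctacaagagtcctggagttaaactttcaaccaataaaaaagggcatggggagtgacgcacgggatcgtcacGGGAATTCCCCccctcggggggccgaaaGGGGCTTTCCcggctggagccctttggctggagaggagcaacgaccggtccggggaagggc
Bcl3 (chr7:19822706-19823005, minus strand) has 1 such match just after the start, and the first of 3 listed Nfkb2 starts (chr19:46304487-46304786, plus strand) has 3 matches, of which a pair overlap each other. The consensus was found in the promoters of 12 of the 34 members that have one in the table, and over promoters in 15 of 46, against 8.46% of all mouse promoters. Other members with it include Nfkbia, Nfkbie, Tnfaip3, Tnip1, Rel, Tlr2 and Irak1. It was absent from the listed promoters of Rela, Myd88, Tlr6, Tlr12, Tirap, Irak4, Tab2 and Ticam1, which were also higher in ko GMP. Either RUNX motif was found for 10 of the 34, and over promoters TGTGGT in 8 and TGCGGT in 3 of 46, near the shares of all promoters, of which 22.4% hold either motif. No RUNX match overlapped a kappa B match in these promoters.

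**Figure D4:**
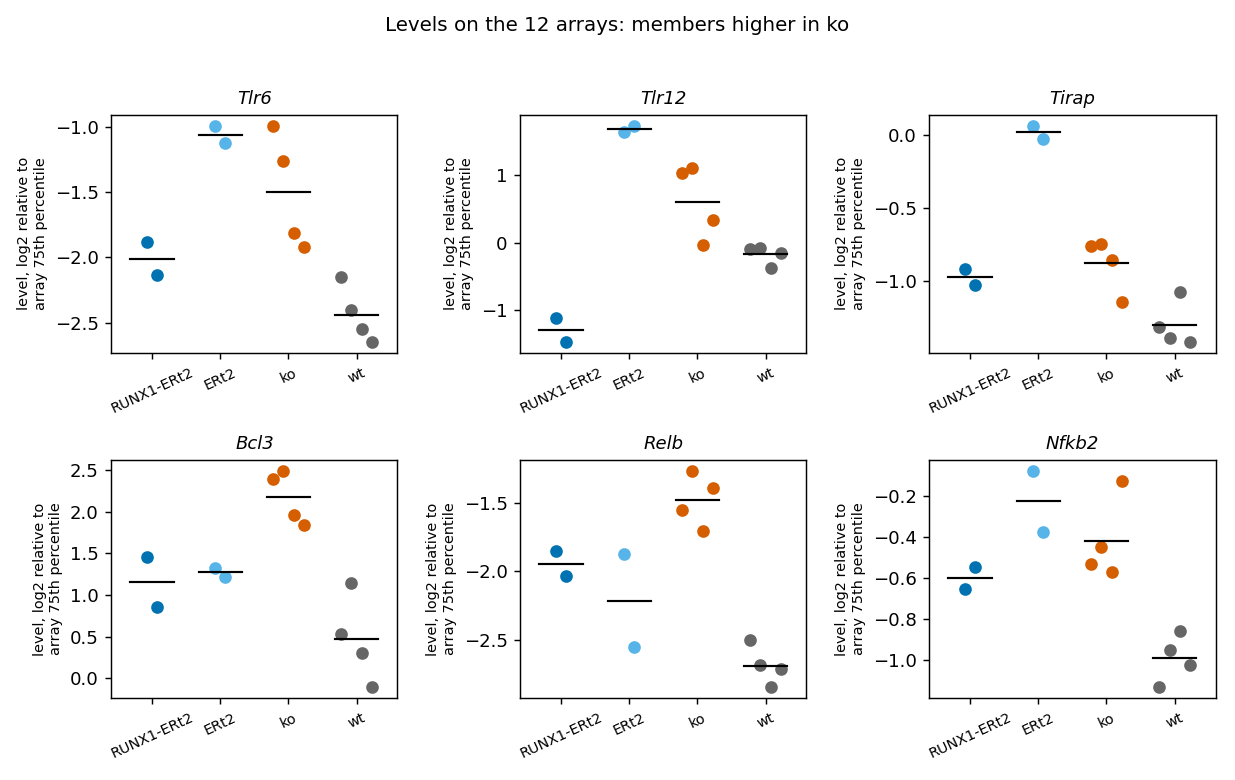
Level (log2 relative to the 75th percentile of the array) of 6 members that were higher in ko GMP, on each array; lines are group means. Tlr6, Tlr12 and Tirap are also lower in RUNX1-ERt2 than in ERt2 GMP, whereas the RUNX1-ERt2 and ERt2 arrays of Bcl3 and Relb overlap.

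The other IkB proteins and inhibitors were mixed. Nfkbia, which encodes IkBα and is itself an NF-kB target, read 3.25, 3.08, 4.86 and 5.68 on the ko arrays, against 2.47, 2.92, 4.57 and 4.29 on the wt arrays. The ranges overlapped, and both genotypes were higher on slide 2, by 2.11 in ko and 1.74 in wt GMP. With the slide term the difference was 0.66 ± 0.19 (limma adjusted p = 0.0326), and without it the call ended (adjusted p = 0.536). In all, the Nfkbia call ended in 8 of 18 other settings. Nfkbie (IkBε) was higher in ko GMP by 0.48 ± 0.15 (adjusted p = 0.0474, and 0.0712 with the replicate block), a call that ended in 13 of 18 other settings. Irak3 (IRAK-M), an inhibitory member of the IRAK family, was lower, with −0.11, −0.15, −0.56 and −0.52 in ko GMP and 0.24, 0.31, 0.45 and 0.02 in wt GMP (−0.59 ± 0.14, adjusted p = 0.0170; 0.0538 without ko replicate 4). Tollip, Nfkbib, Nfkbiz and Tnip1 did not pass.

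Tnfaip3 (A20), a ubiquitin-editing enzyme induced by NF-kB, read 1.41, −0.09, 1.69 and 2.70 in ko GMP and −0.26, 0.18, 1.13 and 0.46 in wt GMP, and its difference of 1.05 ± 0.37 did not pass (limma adjusted p = 0.0650). Tnf read −3.08, −3.90, −2.63 and −1.24 in ko GMP and −3.01, −1.44, −0.22 and −2.11 in wt GMP (−1.02 ± 0.50, adjusted p = 0.171; 0.0496 without wt replicate 4). Tnfaip3, Tnf and Nfkbiz, like Nfkbia, were higher on slide 2 in both genotypes, by 0.84 to 1.57. A list of 10 immediate early genes such as Fos and Egr1, which respond within minutes to handling or stimulation, was added after the data were seen. Its summed level was 9.01 to 31.1 in RUNX1-ERt2 GMP, 3.55 to 8.35 in ERt2 GMP, 31.7 to 515.3 in ko GMP and 27.6 to 176 in wt GMP, with the highest value on ko replicate 4, which also had the highest Nfkbia, Nfkbiz, Tnfaip3 and ko Tnf level. The part of this response in the members' levels was not tested.

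Among inhibitors in the transplants, Tnip1, which works with Tnfaip3 to restrain IKK, was the one that passed. It read 3.20 and 3.16 in RUNX1-ERt2 GMP and 3.89 and 3.97 in ERt2 GMP (−0.75 ± 0.15, limma adjusted p = 0.00871; 0.0508 without ERt2 replicate 2), and a neighbouring probe gave −0.77. Nfkbia differed by −0.37 ± 0.27 (adjusted p = 0.400) and Tnf by 0.07 ± 0.71 (0.962). Of the 9 calls with RUNX1-ERt2, those of Tlr1, Tlr12, Ly96 and Tirap held in every other setting in which they could be fitted.

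**Figure D5:**
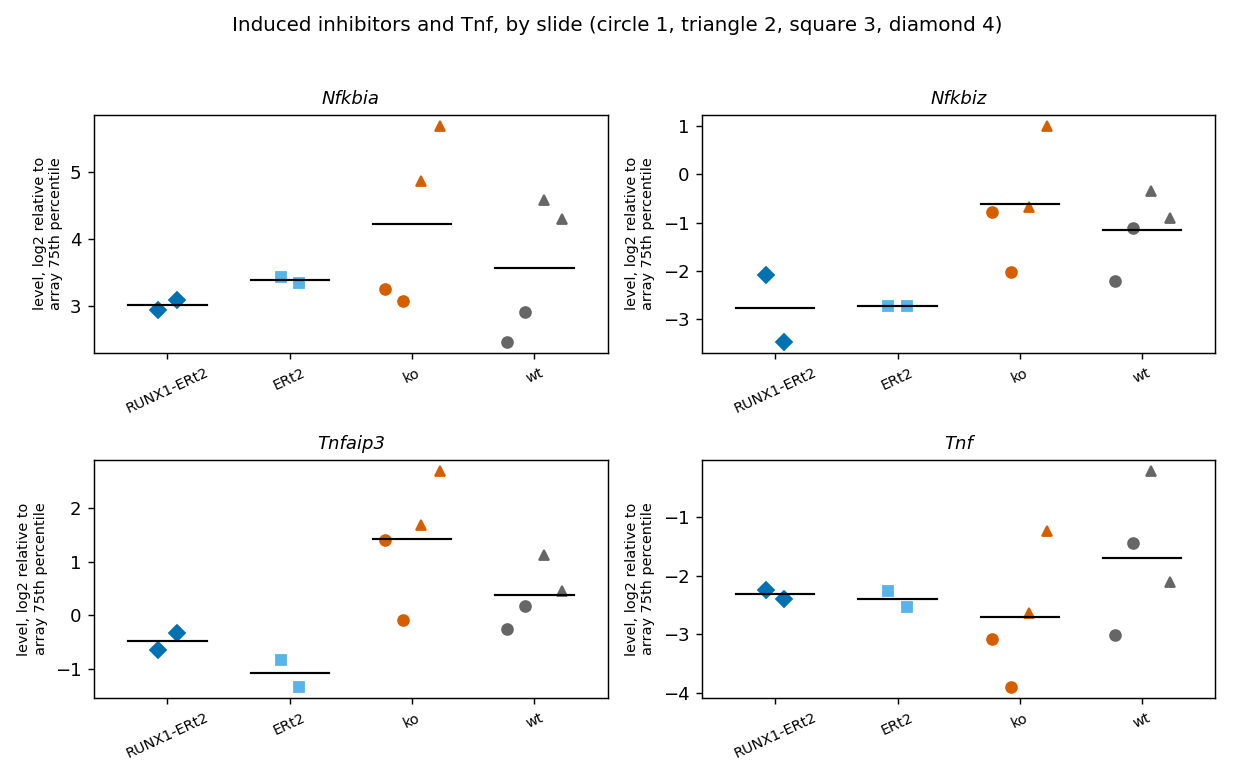
Level (log2 relative to the 75th percentile of the array) of Nfkbia, Nfkbiz, Tnfaip3 and Tnf on each array, with the marker shape giving the slide; lines are group means. For Nfkbia the slide 2 arrays (triangles) lie above the slide 1 arrays (circles) in both genotypes.

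Other genes of the pathway were read from 4 lists. Of 37 further NF-kB signalling genes, 12 were higher and 2 lower in ko GMP, with a median of 0.15; this is 37.8% called against 25.3% of all genes. Traf5, an adaptor of TNF receptors, read −0.30, −0.37, −0.41 and −0.13 in ko GMP, against −1.07, −1.17, −1.18 and −0.82 in wt GMP (0.76 ± 0.11, limma adjusted p = 0.00134), and it was lower with RUNX1-ERt2, at −1.09 and −1.32 against 0.14 and 0.07 with ERt2 (−1.31 ± 0.15, adjusted p = 0.000408). Pdlim2, a nuclear ubiquitin ligase that terminates p65 activity, was likewise higher in ko GMP and lower with RUNX1-ERt2 (0.88 ± 0.11, adjusted p = 0.000651, and −0.88 ± 0.15, 0.00347), and so did Map3k8, the kinase TPL2 (0.74 ± 0.20, 0.0233, and −1.23 ± 0.28, 0.0136), although with normexp background correction neither Map3k8 call held (0.17, 0.673, and −0.76, 0.303). In the transplants 1 of the 37 was higher and 6 lower, against 10.2% and 8.87% of all genes. In either direction this is 18.9% against 19.1%. Ikbke, an IKK-related kinase, was lower with RUNX1-ERt2 at −2.19 ± 0.22 (adjusted p = 0.000173), and Tnip3, a relative of Tnip1, was higher, at least 2.34-fold, since no ERt2 array was well above background (adjusted p = 0.00884; 0.768 with normexp).

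Of 16 tested accessory genes of Toll-like receptors, 3 were higher and 7 lower in ko GMP, and 1 was higher and 7 lower with RUNX1-ERt2. This is 62.5% against 25.3% of all genes and 50% against 19.1%. The endosomal proteases Ctss and Lgmn, which cleave nucleic acid receptors, were lower in both comparisons: Ctss at −1.06 ± 0.26 in ko GMP and −1.60 ± 0.37 with RUNX1-ERt2 (limma adjusted p = 0.0182 and 0.0154), and Lgmn at −1.06 ± 0.26 and −1.57 ± 0.37 (0.0184 and 0.0176). Without the slide term no call of either gene held (Ctss 0.131 and 0.134, Lgmn 0.199 and 0.22), and with RUNX1-ERt2 the Ctss call ended when any 1 of the 4 transplant arrays was left out (0.0544 to 0.0794), as did that of Lgmn without ERt2 replicate 1 or either RUNX1-ERt2 array (0.0555 to 0.113). Ly86 (MD-1), the partner of the receptor homologue Cd180, was lower in ko GMP (−1.49 ± 0.38, adjusted p = 0.0204; 0.0565 without the slide term). Unc93b1, which carries nucleic acid receptors to endosomes, was lower with RUNX1-ERt2, at 2.12 and 2.09 against 3.57 and 3.75 with ERt2 (−1.56 ± 0.27, 0.00386). These falls lie beside those of the monocyte markers given above.

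Among 12 tested TNF and interleukin-1 family receptors, 0 were higher and 3 lower in ko GMP, and 2 were higher and 1 lower with RUNX1-ERt2. At 25% in each comparison the list was close to the 25.3% and 19.1% of all genes. Il1r1, the interleukin-1 receptor, which signals through Myd88, moved in opposite directions. It read −3.92, −3.89, −3.39 and −3.25 in ko GMP, against −0.96, −0.95, −1.05 and −1.40 in wt GMP (−2.52 ± 0.18, limma adjusted p = 5.06e-05), and −2.31 and −2.15 with RUNX1-ERt2, against −3.52 and −3.08 with ERt2 (1.07 ± 0.26, 0.0199; 0.66, 0.195 with normexp, and lost without ERt2 replicate 1 or either RUNX1-ERt2 array, 0.0586 to 0.122). Il18rap (−1.02 ± 0.19, 0.00514) and Tnfrsf13c, the BAFF receptor (−0.76 ± 0.13, 0.00338), were lower in ko GMP. Tnfrsf18 (GITR) was higher with RUNX1-ERt2 by 1.18 ± 0.27 (0.0149; 0.79, 0.0869 without ERt2 replicate 2 and 0.0988 without RUNX1-ERt2 replicate 2). Tnfrsf1a, the main TNF receptor, was lower (−0.64 ± 0.17, 0.0317), a call that ended whichever of the 4 transplant arrays was left out (0.0562 to 0.164).

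Of 30 tested NF-kB target genes, which include 7 of the members, 7 were higher and 3 lower in ko GMP, and 2 were higher and 4 lower with RUNX1-ERt2, or 33.3% against 25.3% of all genes and 20% against 19.1%. Of the 7 higher in ko GMP, 4 are the members Relb, Nfkb2, Nfkbia and Nfkbie already described. Il6, a cytokine gene, went against the subunits: it read −3.62, −4.04, −3.32 and −3.74 in ko GMP, against −2.06, −2.21, −2.01 and −1.48 in wt GMP (−1.74 ± 0.28, limma adjusted p = 0.00295). In RUNX1-ERt2 GMP it read −1.14 and 0.07, and as neither ERt2 array was well above background, it was at least 25.1-fold higher there than in ERt2 GMP (adjusted p = 1.49e-05). The chemokine gene Ccl2 was higher in ko GMP by 2.26 ± 0.45 (adjusted p = 0.00747; 1.30, 0.0836 with normexp and 0.0527 without the slide term), with both slide 2 arrays above both slide 1 arrays in each genotype. Cd83, a surface marker of activated cells, was well above background on 2 of 4 ko and 3 of 4 wt arrays, so no size is given for it. Vcam1, an adhesion molecule that is also on the macrophage list, was lower with RUNX1-ERt2 (−3.72 ± 0.61, 0.00305), as was the complement gene C3 (−2.58 ± 0.74, 0.0398), whose call ended without RUNX1-ERt2 replicate 2 (−1.48, 0.227) or either ERt2 array (0.143 and 0.117).

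The ERt2 and ko groups both derive from Runx1fl/fl-Tg(vav-Cre) mice and differ by transplantation, 5-fluorouracil, retrovirus, tamoxifen and slide, which cannot be told apart. Of the 39 members, 17 were higher and 10 lower in ERt2 than in ko GMP, against 30.2% and 26.7% of all tested genes, or 69.2% of members against 56.9% of genes in either direction. Both ERt2 arrays lay above all ko arrays in 18 members and below all in 9, against 33.9% and 29.1% of genes. This comparison shares its arrays with the others. Of the receptors and cofactors 6 of 11 were higher, among them Tlr1 at 2.43 ± 0.57, Tlr4 at 2.06 ± 0.27, Lbp at 1.77 ± 0.35 and Tlr2 at 0.83 ± 0.19 (limma adjusted p = 0.00556, 0.000223, 0.00245 and 0.00514), while Ly96 (0.36 ± 0.20) and Cd14 (0.85 ± 0.40) did not pass. The 3 tested nucleic acid receptors were lower, with Tlr7 at −1.34 ± 0.33, Tlr13 at −0.89 ± 0.27 and Tlr9 at −0.86 ± 0.12 (0.00684, 0.0187 and 0.000304). The dimmer Tlr7 probe gave −0.14 ± 0.26 here, the Tlr7 call ended without the slide term (0.0868), and Tlr13 stood at −0.55 (0.193) without ERt2 replicate 2. All 9 inhibitors and IkB proteins passed, of which Tnfaip3 (−2.51 ± 0.45), Nfkbiz (−2.11 ± 0.59), Bcl3 (−0.90 ± 0.21), Nfkbia and Nfkbie were lower, and Irak3 (1.40 ± 0.18), Tnip1, Nfkbib and Tollip were higher. With the replicate block the Nfkbia difference was 0.13 (adjusted p = 0.692) in place of −0.83, and Tlr6, Ikbkg, Chuk and Nfkbiz no longer passed (0.307, 0.105, 0.0956 and 0.0969). That block sets ERt2 arrays 1 and 2 mainly against the same-numbered ko arrays, which lie on slide 1. The labels do not pair ERt2 with ko arrays, so these changes do not measure a pairing. Of the 10 immediate early genes, 9 were lower in ERt2 GMP as well.

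Whether RUNX1 had a different effect in the 2 settings was tested as RUNX1-ERt2 minus ERt2 less wt minus ko. Of the 39 members, 2 were higher and 6 lower, against 9.42% and 8.75% of all tested genes (20.5% of members and 18.2% of genes in either direction). Tlr1 (−3.93 ± 0.80), Tlr12 (−2.20 ± 0.29), Tlr4 (−1.82 ± 0.38), Lbp (−1.75 ± 0.50), Ly96 (−1.21 ± 0.28) and Traf3, an adaptor that restrains the alternative pathway (−0.63 ± 0.17), were lower under RUNX1 in the transplants than native GMP would give (limma adjusted p = 0.0100, 0.00120, 0.0114, 0.0407, 0.0170 and 0.0317). The call of Lbp ended in 13 and that of Traf3 in 12 of 21 other settings, 8 of them for each gene leaving out 1 array. Bcl3 (1.58 ± 0.30) and Relb (1.48 ± 0.26) differed in the other direction (0.00734 and 0.00543), since both were lower in wt than in ko GMP and close between RUNX1-ERt2 and ERt2 GMP. For Tlr6 the estimates of the 2 settings were nearly the same, with a difference of −0.01 and a 95% interval of −0.49 to 0.47. RUNX1-ERt2 and ERt2 GMP lay on separate slides, so the transplant estimates cannot be told apart from a slide difference. The 2 estimates are also unlike in kind. The native estimate sets intact against deleted Runx1 alleles. The transplant estimate sets a retroviral fusion protein, given tamoxifen on 3 days and sorted 24 h later, against ERt2 alone. The form of RUNX1 and the time of exposure therefore cannot be told apart from the setting.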

How the data were processed

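Total RNA of 12 sorted GMP samples was measured on one-colour (Cy3) Agilent arrays. The deposited scanner intensity is the processed signal, background-subtracted and detrended by Agilent Feature Extraction 10.7.3.1, per the file headers; the submitters' processing notes name version 9.1. A deposited table of the authors holds the same signals as a ratio to the array median (column medians 0.91 to 0.94, not on a log scale); its 8 ko and wt columns match the scanner values of another replicate of the same group, so it served as an alternative and scanner labels were kept.

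The 75th percentile of each array was subtracted from its log2 processed signal. Control and flagged spots were left out, and spots of a probe were averaged. Each gene was represented by its brightest probe, and a gene entered the test if some group had this probe well above background on all its arrays. One limma fit (limma 3.58.1, R 4.3.3) over the 4 groups with a slide term for ko and wt gave moderated differences, adjusted by Benjamini-Hochberg over 17905 genes at a threshold of 0.05. Probe coordinates are of mm9 per the file headers. Promoters are RefSeq's (GRCm38.p6), matched by symbol for 34 members. Fits were tested on simulated data.

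The members, lists and tests were chosen with earlier results of these data known. Members past the threshold in both comparisons, up to 4 of the largest called differences per role, and Tlr2, Tlr4, Cd14, Myd88, Nfkb1, Nfkbia and Tnf were to be given in full, with up to 3 genes per further list chosen the same way; other members named with values were chosen after these were seen. Same-numbered ko and wt arrays deviated together (correlations 0.373, 0.354, 0.176 and 0.673). Numbers 1 and 2 lay on slide 1 and numbers 3 and 4 on slide 2. Within a slide the correlation was −0.0269 for numbers 1 and 2 and 0.43 for 3 and 4. On slide 1 the deviations thus showed no pairing beyond the slide. The numbers were still treated as pairing in a blocked alternative. That block also joined transplant arrays to native arrays of the same number, which the labels do not pair. Other alternatives were normexp background correction with an offset of 50, quantile and median scaling, dropping the filter on dim probes or asking it of all 12 arrays, no slide term, fits of the compared groups alone, the mean of all probes, and leaving out each array. A bound given as "at least" sets the brighter group's mean against the lowest signal that the dim arrays could measure.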

Additional observations from a re-analysis of the deposited data

Results flagged for a closer look

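Among 78 pairs of a member and a native group, 6 had 1 array set far apart from the other 3, where chance gives about 1 in 20. Cd14 stood at −1.48 on ko replicate 3, against −2.27 to −2.43 on the other ko arrays. Traf3 was lowest on ko replicate 4, at 1.98 against 2.20 to 2.22, and so was Ikbkg, at −2.53 against −2.25 to −2.21. Chuk was lowest on ko replicate 2, at 1.87 against 2.01 to 2.03. On wt replicate 4, Irak1 read 1.91 against 2.10 to 2.13, and Traf6 read 0.03 against −0.80 to −0.97. None of these members passed the ko minus wt test.

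The RUNX1 effect, taken as RUNX1-ERt2 minus ERt2 less wt minus ko, differed between the settings for 8 members by the limma test of that difference. It was lower in the transplants for Tlr1 (−3.93), Tlr12 (−2.20), Tlr4 (−1.82), Lbp (−1.75), Ly96 (−1.21) and Traf3 (−0.63), and higher for Bcl3 (1.58) and Relb (1.48). The native arrays and the transplant arrays came from different slides, and so did the RUNX1-ERt2 and ERt2 arrays. The form of RUNX1 and the time of exposure also differed between the settings.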

How the results depend on the processing

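Between ko and wt GMP, 17 members passed; the count was 9 with normexp, 10 with median scaling, 10 without the filter on dim probes, 10 without the slide term, 11 with the authors' table and 1 on slide 2 alone. Leaving out 1 array gave 8 to 16, with 8 without ko replicate 1, 9 without wt replicate 1 or ko replicate 4, and 11 without wt replicate 2 or ko replicate 2. For RUNX1-ERt2 against ERt2, 9 members passed, and 5 to 8 when 1 array was left out, the lowest without ERt2 replicate 2. For ERt2 against ko, 27 passed, and 17 to 25 when 1 array was left out, again lowest without ERt2 replicate 2. The difference of RUNX1 effects passed for 8 members, for 5 with normexp and 5 without the slide term, and for 4 to 9 when 1 array was left out, with 4 without ERt2 replicate 2 and 5 without RUNX1-ERt2 replicate 2. A group left with 1 array was assumed to vary like the others. With the 2 transplant groups fitted alone, 7 members passed for RUNX1-ERt2 against ERt2.

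Directions reversed for 3 ERt2 minus ko differences: Nfkb1 (−2.41, limma adjusted p = 4.49e-07) and Ikbkg (−0.11, 0.465) as the mean of all probes, whose probes differ in sign, and Nfkbia (0.13, 0.692) with the replicate block. Relb's difference of effects no longer passed with normexp (0.162). With the replicate block, 13, 9, 26 and 9 members passed in the 4 comparisons. For ERt2 against ko, this block joined same-numbered arrays that the labels do not pair. Cd14, Myd88, Ticam2 and Traf6 became called in ERt2 against ko (limma adjusted p = 0.0213, 0.0193, 0.0189 and 0.0277) and Tirap in the difference of effects (0.0479). Beside these and the losses given above, the block changed no other member's call. Ikbke, which is not a member, became called in ko (0.0472). Same-numbered RUNX1-ERt2 and ERt2 arrays deviated apart (correlation −0.191), and a crossed pairing, chosen after seeing the data, called 9 members and 2207 genes higher and 1994 lower.

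Counted over the whole array, ko GMP had 2065 higher and 2471 lower genes, but 923 and 1053 with normexp, 1880 and 1397 with median scaling, 1885 and 1328 with the authors' table, and 181 and 200 on slide 2 alone. With RUNX1-ERt2, 1830 were higher and 1588 lower, but 726 and 664 with normexp and 886 and 767 in a fit of both groups alone. In ERt2 against ko, 5405 higher and 4781 lower became 6713 and 3745 with median scaling, where the median of all genes was 0.25 in place of 0.06, 6535 and 3785 with the authors' table, and 10563 and 4908 without the filter. For the difference of effects, 1686 higher and 1567 lower became 614 and 637 with normexp. Precision is limited by having 4 or 2 arrays per group and, for dim probes such as Tlr1, by the background.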
